A study of Mus musculus with 23 samples.

Results

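A set of 10 genes of the natural killer (NK) cell programme was followed across marrow of irradiated mice before and after leukemia. They were 5 surface receptor genes (Klra8, Klrb1c, Ncr1, Klrd1 and Klrk1), 4 genes of cytotoxic granules (Gzma, Gzmb, Prf1 and Nkg7) and the transcription factor gene Eomes. They were chosen by symbol, as 10 of the 19938 genes that had a probe set naming a single gene, and each was read from its only such probe set. For Klra8 another 2 probe sets are shared with related genes and were left out.

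Every mouse had received 2 Gy at the age of 2 months, so no unirradiated group enters. The groups were 7 preleukemic samples of Pax5+/- mice, which lack 1 copy of the B cell commitment factor Pax5, 10 leukemic samples of Pax5+/- mice, 3 preleukemic samples of wild-type (WT) mice and 3 leukemic samples of WT mice. Preleukemic samples, taken 3 weeks after the dose, were B precursors of the pro-B and pre-B stages. Leukemic samples were bone marrow of mice with leukemia, which the titles call pro-B cells. No sort is stated for either kind, nor the strain, the sex or the time from the dose to leukemia, so stage cannot be told apart from age, time since the dose or the way the cells were taken. A further WT leukemia, sample 16, was not analysed here. Samples are called below by the numbers in their titles, which carry no order.

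NK cells are lymphocytes that kill infected or transformed cells without a rearranged antigen receptor. In mice they read their targets through lectin-like receptors encoded together in the NK gene complex, among them the Ly49 family (Klra genes), the NKR-P1 family (Klrb1 genes), CD94 (Klrd1) with its NKG2 partners (Klrc genes) and NKG2D (Klrk1). They kill by releasing granules in which perforin (Prf1) opens the way for granzymes (Gzma, Gzmb). Eomes drives their maturation, and T cells share much of the granule programme.

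Each value is the deposited log2 signal of a probe set on 1 array. As a background line, the 95th percentile of 1228 chemosensory receptor genes, which are not expected in marrow, was taken on each array and lay between 5.38 and 5.82. A level under that line is given as at background. It is a description only, since probe sets differ in how well they bind. All 9 measured B precursor markers stood above the line in all 23 samples. Their mean level was 11.6 to 12.0 in the preleukemic groups and 10.1 to 11.3 in the leukemias, except WT leukemia 15 at 8.65. These are bulk samples, in which fewer cells of a type and less RNA per cell cannot be told apart.

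The promoters of a receptor, a granzyme and perforin (Ncr1, Gzmb and Prf1) are shown because each was highest of its group in WT leukemia 15 and in WT preleukemic sample 20, beside that of Klra8, which was high in sample 20 and at background in leukemia 15. Each runs from 250 bases before to 50 bases after the start of the gene, 5′ to 3′ on the strand of the gene, from RefSeq on GRCm38.p6. For Ncr1 and Klra8 RefSeq lists 2 starts, of which 1 is shown. Capitals mark TGTGGT on either strand, the core letters bound by RUNX factors.
Ncr1, chr7:4337465-4337764, plus strand: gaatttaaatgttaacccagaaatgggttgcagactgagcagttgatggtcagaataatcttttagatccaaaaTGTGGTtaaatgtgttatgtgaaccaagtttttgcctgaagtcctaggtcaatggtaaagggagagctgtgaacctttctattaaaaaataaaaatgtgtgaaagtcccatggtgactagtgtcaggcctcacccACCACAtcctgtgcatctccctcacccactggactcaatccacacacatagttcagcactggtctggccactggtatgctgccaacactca
Gzmb, chr14:56262285-56262584, minus strand: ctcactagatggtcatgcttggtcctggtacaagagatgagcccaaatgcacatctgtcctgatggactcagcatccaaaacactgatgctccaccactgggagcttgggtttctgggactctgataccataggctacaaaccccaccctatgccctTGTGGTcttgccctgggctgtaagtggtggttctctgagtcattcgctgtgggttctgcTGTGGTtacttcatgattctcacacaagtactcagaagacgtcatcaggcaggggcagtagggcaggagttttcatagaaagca
Prf1, chr10:61297586-61297885, plus strand: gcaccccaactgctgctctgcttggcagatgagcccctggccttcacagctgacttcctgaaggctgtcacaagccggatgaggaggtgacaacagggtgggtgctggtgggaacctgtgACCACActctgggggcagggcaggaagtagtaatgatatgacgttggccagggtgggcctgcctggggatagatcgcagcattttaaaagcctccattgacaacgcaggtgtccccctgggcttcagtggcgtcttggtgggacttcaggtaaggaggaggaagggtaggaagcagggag
Klra8, chr6:130129849-130130148, minus strand: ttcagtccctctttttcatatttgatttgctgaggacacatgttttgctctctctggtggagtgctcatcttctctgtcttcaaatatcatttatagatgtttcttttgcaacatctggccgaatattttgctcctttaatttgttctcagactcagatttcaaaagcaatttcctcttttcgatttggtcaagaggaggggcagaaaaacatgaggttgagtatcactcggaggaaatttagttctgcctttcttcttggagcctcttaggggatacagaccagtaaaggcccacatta

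Of the 10 members, 9 matched a RefSeq promoter, all but Klrd1. Searched on both strands, TGTGGT was found in the promoters of 7 of them (Klrb1c, Klrk1, Ncr1, Gzma, Gzmb, Prf1 and Nkg7), and in 16.8% of all 32851 promoters of the same length. In Ncr1 it lay at -176 to -171 and at -41 to -36 from the start of the gene, in Gzmb at -93 to -88 and -34 to -29, and in Prf1 at -130 to -125. The T-box letters GGTGTGA, a sequence bound by Eomes and its relatives, were found in Nkg7 only, and in 3.98% of all promoters. The STAT letters TTCNNNGAA were in Gzmb and Nkg7 (8.30% of all promoters), the ETS letters CCGGAAG in no member (8.86%), and TATAAA in Klra8 (13.6%). In Klra8 the match lay on the opposite strand. None of the matches in members overlapped another, and a match describes letters, not a bound site.

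**Figure D1:**
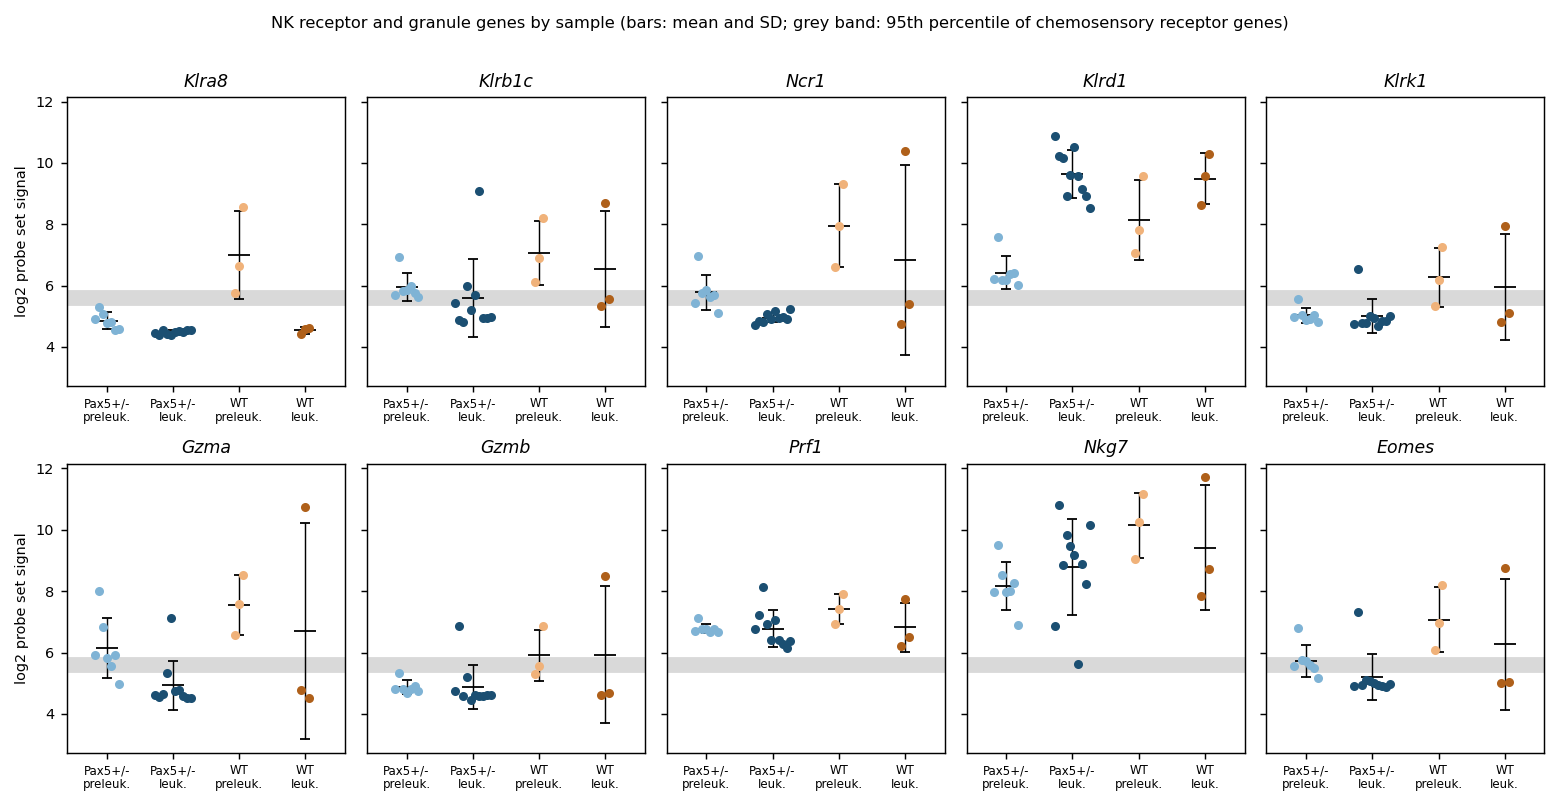
Log2 probe set signal (y axis) of the 10 members in the 4 groups (x axis), with 1 point per sample, bars for the mean and SD, and a grey band for the background line, 5.38 to 5.82. Klrd1 stands above the band in all 23 samples and is highest in the leukemias, while Klrb1c, Ncr1, Klrk1, Gzma and Gzmb are highest in a single leukemia, number 7 for Klrb1c and number 15 for the rest. Klra8 is under the band in all 13 leukemias.

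Klrd1, which encodes CD94, was higher in leukemia. In the 10 Pax5+/- leukemias its level ran from 8.54 through a median of 9.595 to 10.89, and in the 7 Pax5+/- preleukemic samples from 6.03 through 6.22 to 7.59. The groups did not overlap. Genes were tested if they exceeded the 30th percentile of the probe sets of their array on at least 3 arrays, which all 10 members did, and were called at a limma p of at most 0.05 after Benjamini-Hochberg adjustment over all genes tested. The Klrd1 difference was 3.23 on the log2 scale (SE 0.37, 95% confidence interval 2.46 to 3.99), a 9.35-fold rise (limma adjusted p = 2.19e-07). In WT mice, leukemias 14, 15 and 17 read 8.62, 9.58 and 10.28, against 7.05, 7.80 and 9.58 in preleukemic samples 18, 19 and 20. The highest WT preleukemic sample thus equalled leukemia 15 and exceeded leukemia 14. The difference of 1.35 (SE 0.61) did not pass (limma adjusted p = 0.0845). Without sample 20 it was 2.07 and passed (limma adjusted p = 0.00920). By group mean the order was Pax5+/- leukemic (9.65 ± 0.78, SD, n = 10), WT leukemic (9.49 ± 0.83, n = 3), WT preleukemic (8.14 ± 1.30, n = 3) and Pax5+/- preleukemic (6.43 ± 0.53, n = 7). No neighbours in that order differed past the threshold.

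Of the 10 members, Klrd1 was the only gene called between Pax5+/- leukemic and preleukemic samples with all 4 groups in the fit. Among all 15542 genes tested, 28% were called higher and 36.5% lower in that comparison, so 1 call in 10 is below the share among all genes. The members' median difference was -0.19, against -0.05 for all genes. Between stages in WT mice 1 member, Klra8, was called lower and none higher, Klra8 having entered the test through the WT preleukemic samples, where 17.9% of all genes were called higher and 19.3% lower. The members' median there was -0.67, against -0.06 for all genes. With array weights, the WT differences of Klrb1c, Ncr1, Klrk1, Gzma, Nkg7 and Eomes were positive instead, and uncalled.

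CD94 reaches the surface as a partner of the NKG2 proteins, encoded by Klrc1, Klrc2 and Klrc3. Klrc1 read 4.75 to 5.40 in the 10 Pax5+/- leukemias, and 4.89 and 5.05 in WT leukemias 14 and 17. All were at background but Pax5+/- leukemia 2, whose 5.40 lay just above its line of 5.38. It read 9.99 in WT leukemia 15, and 5.47, 6.28 and 8.32 in WT preleukemic samples 18, 19 and 20. High Klrd1 in 12 of the 13 leukemias therefore came with Klrc1 at or next to background. In WT leukemia 15, WT preleukemic samples 19 and 20 and Pax5+/- preleukemic sample 12 both were above it. Klrc1 read 5.95 in sample 12, and 4.91 to 5.28, at background, in the other Pax5+/- preleukemic samples. In WT preleukemic sample 18 Klrc1 was under its line of 5.65. Klrc2 was also highest in WT leukemia 15, at 7.14, and read at most 5.02 in the Pax5+/- leukemias. No Klrc gene was called in any comparison, and Klrc3 was too low to be tested.

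**Figure D2:**
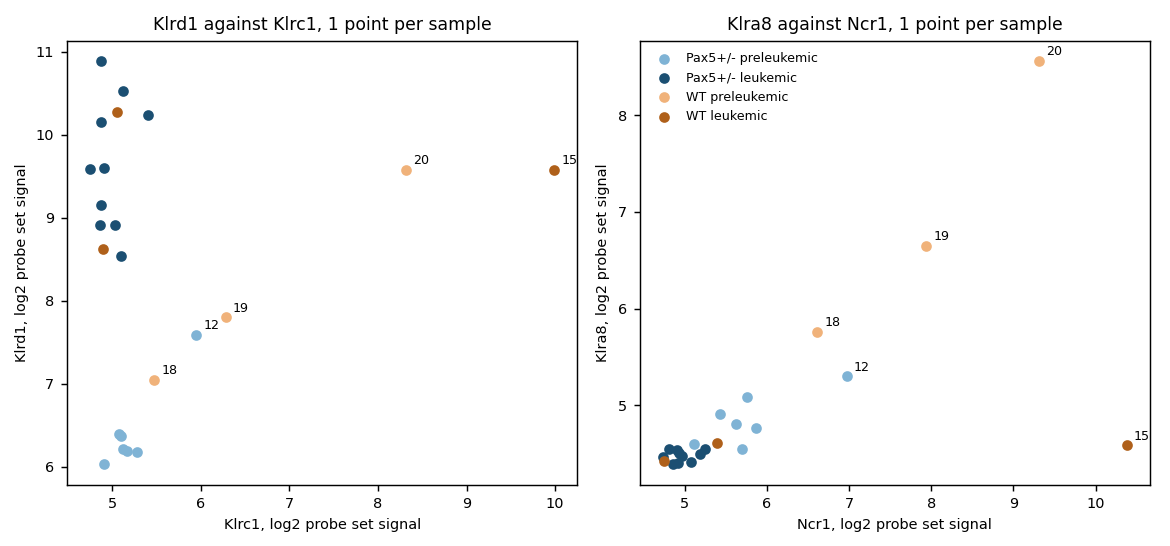
Left, log2 signal of Klrd1 (y axis) against that of Klrc1 (x axis). Right, log2 signal of Klra8 (y axis) against that of Ncr1 (x axis). Each point is a sample, coloured by group, with samples 12, 15, 18, 19 and 20 numbered. On the left 12 of 13 leukemias hold Klrd1 from 8.54 up with Klrc1 at most at 5.40. On the right WT leukemia 15 has Ncr1 at 10.38 and Klra8 at 4.59.

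The genes around Klrd1 in the NK gene complex did not move as a block. These neighbours, 6 protein-coding genes on each side in the RefSeq order, were looked up after the values were known. Klrk1, Klrc3, Klrc2 and Klrc1, which follow Klrd1 in that order, were not called or not tested. Klri1, the next gene, was higher by 3.66 in Pax5+/- leukemia (12.6-fold, limma adjusted p = 1.45e-05) and by 3.11 in WT leukemia (limma adjusted p = 0.0146). It encodes another lectin-like receptor of NK cells. Klri1 ran from 6.07 to 11.01 in the Pax5+/- leukemias and from 5.46 to 5.86 in their preleukemic samples, without overlap. On the other side Klre1 was too low to be tested, and Gabarapl1, an autophagy gene, was higher by 1.23 (limma adjusted p = 4e-07) and by 1.08 (limma adjusted p = 0.00181). Farther along on that side, the lectin genes Clec1a and Clec7a were higher in Pax5+/- leukemia by 0.20 and 0.85 (limma adjusted p = 0.00951 and 0.00793), and Olr1 was not called.

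The genes whose deviations from the group means were most like those of Klrd1 over the 23 arrays were Fyn (r = 0.86), Srgap3 (r = 0.81) and Stat4 (r = 0.80). For Ncr1 they were Klrc1, Klrc2 and Klrb1a (r = 0.97 each). By rank (Spearman's rho) these read 0.74, 0.70 and 0.55, against 0.83, 0.81 and 0.81 for the Klrd1 genes. The measure describes these arrays, which share a platform and a processing, and has no test. Klrd1 and Ncr1 had no gene in common among their 3 nearest, which with so few taken does not show that they vary apart.

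Ncr1 encodes NKp46, an activating receptor that in mouse marrow marks NK cells and some innate lymphoid cells. In the 10 Pax5+/- leukemias it ran from 4.73 through 4.92 to 5.24, at background in all of them. In the 7 Pax5+/- preleukemic samples it ran from 5.11 through 5.70 to 6.97, the highest being sample 12. WT preleukemic samples 18, 19 and 20 read 6.61, 7.94 and 9.31. WT leukemias 14, 15 and 17 read 4.74, 10.38 and 5.39, so the highest value of all 23 was in WT leukemia 15. Between Pax5+/- stages the difference was -0.82 (SE 0.53, limma adjusted p = 0.180). That fit shares its estimate of spread with the WT groups, whose SD was 1.35 and 3.09 against 0.16 and 0.58 in the Pax5+/- groups. With only the Pax5+/- groups in the fit, the same difference passed (limma adjusted p = 0.000741).

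Klra8 encodes Ly49H, the activating Ly49 receptor that recognises a cytomegalovirus protein. It is carried by C57BL/6 mice and not by all strains. WT preleukemic samples 18, 19 and 20 read 5.76, 6.65 and 8.56. All 20 other samples were lower, at 4.39 to 5.30, and at background. In leukemia it ran from 4.39 to 4.55 in Pax5+/- mice and read 4.42, 4.59 and 4.61 in WT mice. Klra8 passed the filter on low values on 4 arrays, 3 of them WT preleukemic, so a difference from that group was needed for it to be tested at all. The tests against that group are therefore given as a description. Between WT stages the difference was -2.45 (SE 0.38, limma adjusted p = 5.11e-05), and between Pax5+/- and WT preleukemic samples -2.13 (SE 0.32, limma adjusted p = 0.000962). The lower group lay at background on every array in both cases. Measured from the background line, WT preleukemic samples were at least 2.93-fold higher than WT leukemias and at least 2.50-fold higher than Pax5+/- preleukemic samples. Without sample 20 the differences were -1.67 and -1.34 and still passed (limma adjusted p = 1.47e-06 and 9.09e-05). The stage difference itself was not called different between genotypes (2.07, limma adjusted p = 0.0706), but passed without sample 20 (1.28, limma adjusted p = 0.00850) and without sample 18.

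Klrb1c encodes an activating NKR-P1 receptor that marks NK cells in C57BL/6 mice. The 7 Pax5+/- preleukemic samples ran from 5.62 through 5.84 to 6.95 and the 10 Pax5+/- leukemias from 4.83 through 5.09 to 9.07. The high value belongs to leukemia 7 alone, since the next leukemia read 5.98. WT preleukemic samples read 6.11, 6.91 and 8.19, and WT leukemias 14, 15 and 17 read 5.32, 8.71 and 5.57. Of the other NKR-P1 genes, Klrb1b (6.40, next 6.04) and Klrb1 (5.45, next 5.16, at background) were also highest in leukemia 7 among the Pax5+/- leukemias. Klrb1f, at 6.81, was instead the lowest of that group. Klrd1 read 9.59 in that sample. Ncr1 read 4.93 there, Klrk1 4.67 and Klrc1 4.75, all at background, and Nkg7 read 5.62, its lowest of the 23. No comparison of Klrb1c passed, with the largest difference, -1.11, between the preleukemic groups (limma adjusted p = 0.745).

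Klrk1 encodes NKG2D, which binds stress-induced ligands. It ran from 4.80 through 4.97 to 5.57 in the Pax5+/- preleukemic samples and from 4.67 through 4.84 to 6.53 in the Pax5+/- leukemias. Leukemia 2 held the high value and the next was 5.02. The WT preleukemic samples read 5.34, 6.19 and 7.27, and the WT leukemias 4.80, 7.95 and 5.11. Again samples 20 and 15 were the highest of their groups, and no comparison passed (limma adjusted p = 0.415 to 0.976).

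**Figure D3:**
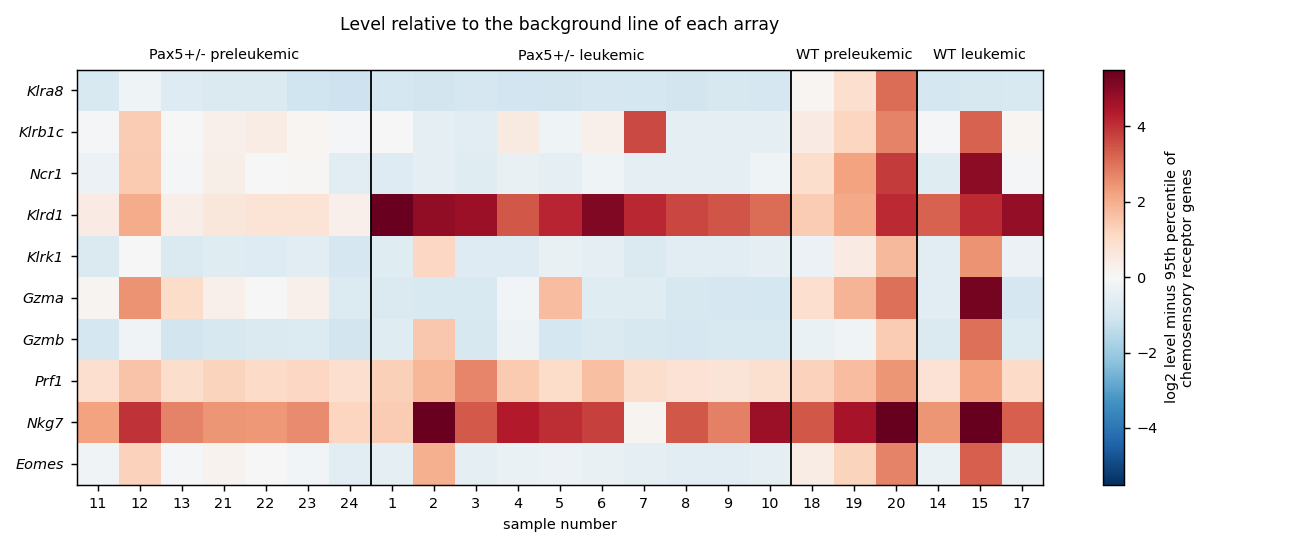
Log2 level minus the background line of the same array (colour) for the 10 members (rows) in the 23 samples (columns, by group and sample number). WT leukemia 15 is above the line for 9 of 10 members and WT preleukemic sample 20 for 10 of 10, while the Pax5+/- leukemias are above it for 3 to 6.

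Granzyme A (Gzma), a granule protease that triggers death of the target cell, was at background in 9 of 10 Pax5+/- leukemias. It ran from 4.51 through 4.635 to 7.11 in the Pax5+/- leukemias, with leukemia 5 highest and leukemia 4 next at 5.33. The Pax5+/- preleukemic samples ran from 4.98 through 5.91 to 8.01, and WT preleukemic samples 18, 19 and 20 read 6.57, 7.59 and 8.52. WT leukemias 14, 15 and 17 read 4.78, 10.75 and 4.53. The Pax5+/- stages overlapped through leukemias 4 and 5, since preleukemic sample 24 read 4.98. Between Pax5+/- stages the difference was -1.21 (SE 0.66, limma adjusted p = 0.110), which passed with only the Pax5+/- groups in the fit (limma adjusted p = 0.0138), where 37% of all genes were called lower.

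Granzyme B (Gzmb), which activates caspases in the target, was at background in most samples of both stages. It ran from 4.44 through 4.605 to 6.86 in the Pax5+/- leukemias and from 4.67 through 4.82 to 5.34 in their preleukemic samples. The highest leukemia was sample 2. WT preleukemic samples read 5.30, 5.55 and 6.86, and WT leukemias 4.61, 8.50 and 4.69. Its largest difference was -1.05, between Pax5+/- and WT leukemias (limma adjusted p = 0.919), and without WT leukemia 15 it turned to 0.23.

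Perforin (Prf1) was above background in all 23 samples and, unlike Gzma and Gzmb, kept within a narrow range. Its level ran from 6.16 through 6.59 to 8.14 in the Pax5+/- leukemias and from 6.66 through 6.76 to 7.11 in the Pax5+/- preleukemic samples. Leukemia 3 was highest, with Gzma at 4.64 and Gzmb at 4.57 in the same sample. WT preleukemic samples read 6.93, 7.43 and 7.90 and WT leukemias 6.21, 7.73 and 6.51. The Pax5+/- stages differed by less than 0.01 in their means, 6.77 ± 0.60 and 6.78 ± 0.15 (SD), with a 95% confidence interval for the difference of -0.50 to 0.50.

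Nkg7, a membrane protein of cytotoxic granules needed for their release, was above background in all 23 samples. It ran from 5.62 through 9.03 to 10.82 in the Pax5+/- leukemias, the widest range of any member in that group, and from 6.90 through 8.00 to 9.51 in the Pax5+/- preleukemic samples. WT preleukemic samples read 9.05, 10.25 and 11.16, and WT leukemias 7.83, 11.71 and 8.73. Among the Pax5+/- leukemias, Nkg7 was highest in leukemia 2, where Klrk1 was above background (6.53). It was next highest in leukemias 10 and 4 (10.17 and 9.83), where Klrk1 was at background. Ncr1 was at background in every Pax5+/- leukemia, and Klrk1 in all but leukemia 2. No comparison passed, the difference between the preleukemic groups being -1.99 (SE 0.89, limma adjusted p = 0.506).

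Eomes ran from 4.88 through 4.965 to 7.33 in the Pax5+/- leukemias, with leukemia 2 highest and the next at 5.10. The Pax5+/- preleukemic samples ran from 5.18 through 5.58 to 6.81. WT preleukemic samples read 6.07, 6.95 and 8.20 and WT leukemias 5.02, 8.74 and 5.03. In 9 of 10 Pax5+/- leukemias and in 2 of 3 WT leukemias it was at background. No comparison passed (limma adjusted p = 0.319 between Pax5+/- stages).

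Before leukemia, all 10 members had a lower mean in Pax5+/- than in WT mice, with log2 differences from -0.64 (Prf1) to -2.18 (Ncr1). Only Klra8, which entered the test through the WT group, passed, where 0.232% of all genes were called higher and 0.392% lower. The members' median was -1.38, against 0.0005 for all genes. At an unadjusted p under 0.05 there were 6 members (Klra8, Ncr1, Klrd1, Klrk1, Nkg7 and Eomes), of 1394 among 15542 genes. The Ncr1 difference passed with only the preleukemic groups in the fit (limma adjusted p = 0.0468), where 1.11% of genes were called lower. Of the individual samples, WT preleukemic sample 20 had the highest preleukemic level of all 10 members and Pax5+/- sample 12 the highest of its group for all 10. For Klra8 all 3 WT samples lay above all 7 Pax5+/- samples, as for 3.1% of all genes tested, and the other members overlapped. Without sample 12, left out after its values were seen, 9 of the 10 members had no overlap, against 3.98% of all genes. The exception was Gzma, for which sample 13 read 6.82. Sample 12 being the highest of its group for all 10 members, leaving it out lowers the Pax5+/- maximum of each. The share of all genes is not matched for that, so this count is a description only.

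Sample 20 also carried more of other cells' transcripts. Its 8 neutrophil markers averaged 11.2, against 6.83 and 6.90 in samples 18 and 19 and 6.53 to 7.32 in the Pax5+/- preleukemic samples. Its 7 mast cell and basophil markers averaged 6.96 (5.42 and 5.43 in samples 18 and 19), its 10 T cell markers 6.63 (5.86 and 5.97) and its 7 plasmacytoid dendritic cell markers 9.89 (8.09 and 8.34). Samples 18 and 19 had 8 and 9 of the 10 members above background. Their neutrophil means lay in the range of the Pax5+/- preleukemic samples, and their T cell means above the 5.74 to 5.81 of those samples. The part of these cells in the members' levels was not tested. Without sample 20 the members' differences between preleukemic groups all remained negative, from -0.40 to -1.50.

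In leukemia, no member was called between Pax5+/- and WT mice. Among all genes 0.0257% were called higher and 0.315% lower by limma, and 916 had an unadjusted p under 0.05. Of the members only Ncr1 did (difference -1.88, limma adjusted p = 0.561), and its WT mean of 6.84 ± 3.09 rests on leukemia 15. Without leukemia 15, 7 members turned from a lower to a higher mean in Pax5+/- mice, by 0.06 (Klrk1) to 0.51 (Nkg7), and none was called. The difference of the stage effects between genotypes was called for no member either, where 0.0965% of genes were called higher and 0% lower by limma and 1118 had an unadjusted p under 0.05, among them Klra8 and Klrd1.

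**Figure D4:**
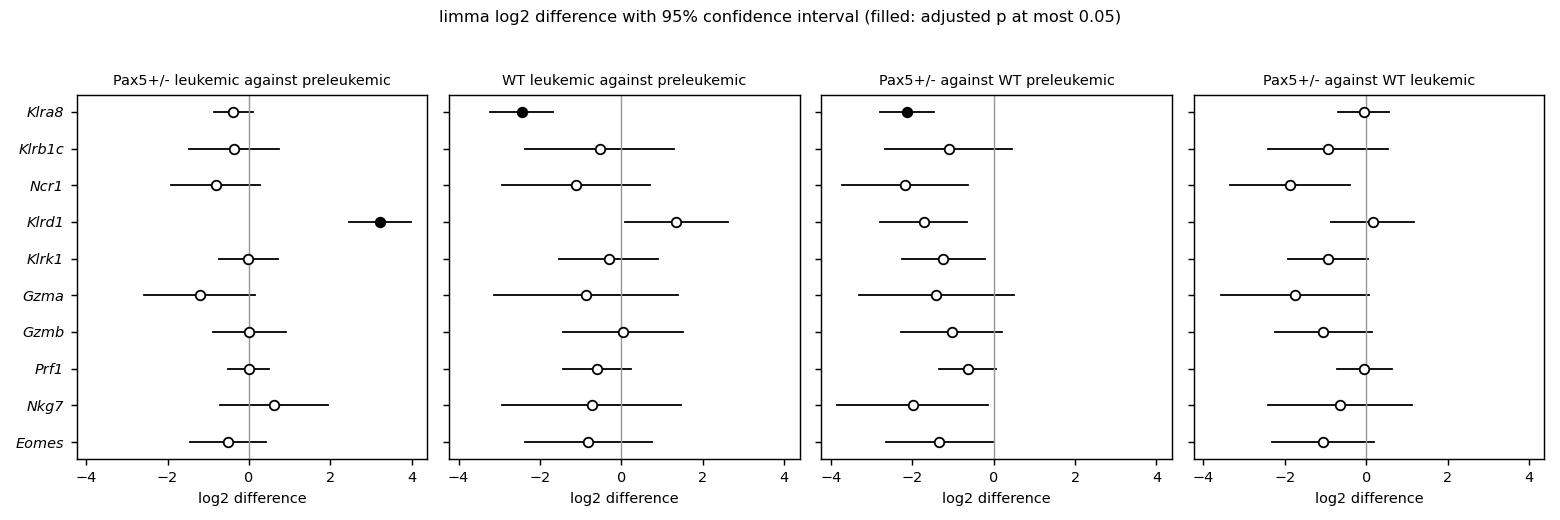
Log2 difference from limma (x axis) with its 95% confidence interval for each member (y axis) in 4 comparisons, filled where the adjusted p was at most 0.05. Klrd1 is filled in Pax5+/- leukemic against preleukemic (3.23), and Klra8 in WT leukemic against preleukemic (-2.45) and in Pax5+/- against WT preleukemic (-2.13).

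WT leukemia 15 carried 9 of the 10 members above background, where WT leukemias 14 and 17 carried 3 and 4. It had the highest level of all 23 samples for Ncr1, Klrk1, Gzma, Gzmb, Nkg7 and Eomes. Klra8 was at background there, at 4.59. The labels do not state the strain, and not every strain carries Klra8, so strain and the cells present cannot be told apart in this value. The Ly49 genes with a probe set of their own differed too. Klra5 read 8.25 in leukemia 15 and 4.06 to 4.51 in the 22 other samples. Klra6 and Klra17 read 4.46 and 4.63 there, against 7.60 and 7.37 in WT preleukemic sample 20. These samples, 15 and 20, thus had different Ly49 genes up, in 1 sample each and with no test. Other NK genes at their highest in leukemia 15 were Klrc1 (9.99), Klrb1a (7.53), Il2rb (10.64), the interleukin-15 receptor chain that NK cells depend on, and Ctsw (9.39), a protease of cytotoxic lymphocytes.

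In leukemia 15 the T cell receptor component Cd3g read 10.39, its highest of all samples. Of the other markers Cd3d read 6.70, Cd3e 6.92, Cd4 6.75 and Cd8a 5.72, and 9 of the 10 T cell markers were above background (mean 7.06, against 6.33 and 6.52 in the other WT leukemias). The B precursor mean was the lowest of the 23, as given above. The part of other cells in these values was not tested. Without leukemia 15, 6 members were called lower in WT leukemic than in WT preleukemic samples, in place of 1, where 15.3% of all genes were called lower in the same fit. They were Klra8, Ncr1 (-2.89, limma adjusted p = 0.000315), Gzma (-2.91, limma adjusted p = 0.00658), Eomes (-2.05, limma adjusted p = 0.0152), Klrk1 (-1.31, limma adjusted p = 0.0330) and Prf1 (-1.06, limma adjusted p = 0.0499). Leukemia 15 was the highest WT leukemia for all of these but Klra8, so leaving it out lowers their WT leukemic means. The share of all genes is not matched for that, and the count is a description. Klra8 and, without leukemia 15, Klrk1 passed the filter only through the WT preleukemic samples. Without sample 20 the count was 2, Klra8 lower and Klrd1 higher, where 25.6% of all genes were called lower and 18.9% higher.

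Single Pax5+/- leukemias held other parts of the programme. Leukemia 2 was highest of its group for Klrk1, Gzmb, Nkg7 and Eomes, with Ncr1 (4.86), Klra8 (4.39) and Gzma (4.56) at background. It also had the highest Gzmk (7.81), Gzmc (6.97) and Tbx21 (7.76) of all samples. Cd3g (9.65), Cd3e (8.33) and Cd4 (9.21) were high there, all 10 T cell markers were above background, and their mean of 7.56 was the highest of the 23. Leukemia 5, with its high Gzma, had Cd3g at 9.24, Cd8a at 7.14 and Cd8b1 at 6.95, and a T cell mean of 7.13. In leukemias 3 and 7, which were high in Prf1 and in Klrb1c, 7 of the 10 T cell markers were above background, with means of 6.25 and 5.92. Cd28 read 8.39 and 5.51 there and Thy1 8.16 and 7.47, while Cd3g was at background (5.34 and 5.24). Of the 10 T cell markers 4 were called higher in Pax5+/- leukemia and 1 in WT leukemia, where 28% and 17.9% of all genes were. The T cell mean ran from 5.92 to 7.56 over the Pax5+/- leukemias and from 5.74 to 5.81 over their preleukemic samples, and its part in the members' levels was not tested.

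Pairs of members were compared among the 10 Pax5+/- leukemias. Klra8 and Ncr1 were above background in 0 of them, and Klrk1, Gzma, Gzmb and Eomes in 1 each. Pairs with these genes had little signal to vary together, so the counts do not show that the members vary apart. None of the 45 pairs had a Pearson correlation that passed after adjustment over the pairs (permutation test, two-sided), and 6 did at an unadjusted p under 0.05. The median r was -0.04. Klrk1 and Eomes had r = 0.98 (permutation p = 0.0144, adjusted p = 0.310) and rho = 0.55 (permutation p = 0.101), and r fell to 0.15 without the 2 samples farthest from the median of Klrk1, so the relation rests on those samples. Among the 7 Pax5+/- preleukemic samples, a test added after the data were seen, 27 of 45 pairs passed by Pearson's r (exact permutation test) and none by Spearman's rho, with a median r of 0.91. Klrk1 and Gzma had r = 0.94 (exact p = 0.000992, adjusted p = 0.0268) and rho = 0.93 (exact p = 0.00675, adjusted p = 0.185), and r = 0.71 without the 2 farthest samples. Without the 2 farthest samples the median r was 0.27. Without sample 12, 13 or 24 no pair passed, and without sample 11 only 3 did. At an unadjusted exact permutation p under 0.05 there were 4 pairs without sample 12. There were 29 without sample 13, 17 without sample 24 and 29 without sample 11.

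The rest of the NK programme was counted from lists of NK genes, to be read against the shares of all genes called given above. Of 10 tested receptor adaptors and signalling genes, 5 rose in Pax5+/- leukemia and 3 in WT leukemia, and none fell. Sh2d1b1, the adaptor EAT-2 of SLAM receptors, rose by 3.87 (limma adjusted p = 5.47e-09) and by 3.34 (limma adjusted p = 0.000137). Its level was 6.34 to 9.71 in the Pax5+/- leukemias and 4.62 to 5.03 in their preleukemic samples, all at background, so the rise was at least 8.14-fold from the background line. Fcer1g, the signalling chain of Fc receptors and of NKp46, rose by 3.45 and 2.26 (limma adjusted p = 1.07e-06 and 0.0201). Lat rose by 1.69 and 1.94. Fcer1g is also used by myeloid cells, and the 8 neutrophil markers averaged 6.15 to 11.4 in the Pax5+/- leukemias against 6.53 to 7.32 before, with 7 of them called higher. Of 6 monocyte and macrophage markers 5 were called higher there too. In WT leukemia 0 of the 8 neutrophil markers and 3 of the 6 monocyte and macrophage markers were called higher. The part of myeloid cells in the Fcer1g rise was not tested.

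Other surface receptors split. Of 16 tested, 9 rose and 3 fell in Pax5+/- leukemia, and 2 rose and 3 fell in WT leukemia. Cd96, a receptor for Pvr on NK and T cells, rose by 3.61 in Pax5+/- leukemia (12.2-fold, limma adjusted p = 1.20e-07). Pvr, its ligand, rose by 1.03 and 0.97 (limma adjusted p = 7.09e-10 and 1.31e-05). Slamf7, a SLAM receptor also found on B cells, fell by 2.19 in Pax5+/- leukemia and fell by 1.57 in WT leukemia. Its relative Slamf6 fell by 1.61 in Pax5+/- leukemia and fell by 1.12 in WT leukemia. Of the 7 tested lectin-like receptors 2 rose in Pax5+/- leukemia, Klri1 and Klrb1f (1.40, limma adjusted p = 0.00517), and Klrb1 fell by 1.00 there and fell by 1.51 in WT leukemia. Of the Ly49 genes besides Klra8, 2 could be tested, and Klra3 fell by 0.98 in WT leukemia (limma adjusted p = 0.00492).

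Of 10 NK transcription factor genes, 5 rose and 3 fell in Pax5+/- leukemia, and 2 rose and 2 fell in WT leukemia. Runx3, which acts in NK and cytotoxic T cells, rose by 2.09 (limma adjusted p = 1.79e-09) and by 1.16 (limma adjusted p = 0.00337). Stat4, the mediator of interleukin-12 signals, rose by 1.97 in Pax5+/- leukemia. Zeb2, a factor of late NK maturation that B precursors also use, fell by 2.02 in Pax5+/- leukemia and fell by 2.28 in WT leukemia. Tbx21, the partner of Eomes in NK maturation, was not among the called genes. Of 3 tested markers of type 1 innate lymphoid cells, the NK cells' tissue relatives, 1 rose, the integrin Itga1, by 2.05 and 1.61 (limma adjusted p = 1.69e-06 and 0.00833).

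Of 11 genes for granule maturation, release and granzyme inhibition, 7 rose and 1 fell in Pax5+/- leukemia, and 3 rose and 1 fell in WT leukemia. The granzyme inhibitor Serpinb9 rose by 1.35 and 1.54 (limma adjusted p = 0.000217 and 0.0105), and Serpinb6b, a relative, by 2.37 and 2.23 (limma adjusted p = 6.23e-07 and 0.00134). Rab27a, which docks granules, rose by 1.05 in Pax5+/- leukemia. Of 8 other granzymes only Gzmk and Gzmm were high enough to test, and Gzmm fell by 0.26 in Pax5+/- leukemia.

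Among signals to NK cells, Il15, the cytokine that keeps NK cells alive, fell by 2.19 in Pax5+/- leukemia (limma adjusted p = 8.29e-09) and fell by 1.26 in WT leukemia (limma adjusted p = 0.00530). It read 4.94 to 5.31 in the Pax5+/- leukemias, at background in all 10, so it was at least 3.71-fold higher in their preleukemic samples. Of the 6 tested cytokines of that list, 4 fell and 1 rose in Pax5+/- leukemia and 2 fell in WT leukemia. Of 8 tested effector cytokines and chemokines only Tnf was called, higher by 1.95 and 1.71. Of 2 tested ligands of NKG2D, H60b was higher by 0.27 in Pax5+/- leukemia (limma adjusted p = 0.0401). No gene of these NK lists was called between genotypes at either stage.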

How the data were processed

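RNA of 23 bone marrow samples, extracted with Trizol and biotin-labelled, was measured on 1-colour arrays, according to the protocols in the labels. The authors deposited log2 signals, 1 per probe set and sample, from 3.65 to 14.2, with array medians from 6.06 to 6.2. The software named is Transcriptome Analysis Console, per the submitters' processing notes. Background correction, summarization and normalization are not given in the sources used here. Precision is limited by the number of arrays. No 2 arrays held identical values.

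Of 28944 probe sets, 21789 carried 1 gene symbol, and per gene the probe set of highest mean was kept. Genes above the 30th percentile of their array on at least 3 arrays were tested (15542). The main model held the 4 groups in a joint limma fit (version 3.58.1, R 4.3.3, eBayes with trend, two-sided, Benjamini-Hochberg over all genes, threshold 0.05), tested on simulated data. Pair correlations used 100000 permutations, or all of them for 7 samples. The members and gene lists were chosen with earlier results of these data known. Named genes were the members, up to 3 called genes of smallest p per list and comparison, and for each member the 3 genes of most similar within-group deviations; other names were chosen after their values were seen. Of the listed genes, Klra1, Klra4, Klra7, Klra9, Klra10, H2-K1, H2-D1 and H2-T23 were on shared probe sets and were not used here. Alternatives changed the filter, prior, normalization, groups, probe sets, array weights and samples, or added a random block. The block was the first letter of the mouse number where the source label names Pax5, and 1 shared block for all other samples. Figures were drawn with matplotlib 3.10.9.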

Additional observations from a re-analysis of the deposited data

Results flagged for a closer look

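In the groups of 4 to 10 samples, 20 combinations of member and group were checked for a sample far from the others by Dixon's ratio, and 13 were found. The cut-off gives about 1 in 20 for normally distributed values. No rate over all genes was taken, so the count is a description. Of the 13, 7 were Pax5+/- preleukemic sample 12, where Klrb1c read 6.95, Ncr1 6.97, Klrd1 7.59, Klrk1 5.57, Gzmb 5.34, Prf1 7.11 and Eomes 6.81. They are not independent, since they are 1 sample.

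The other 6 were in the Pax5+/- leukemias. Leukemia 2 stood apart for Klrk1 (6.53), Gzmb (6.86) and Eomes (7.33), leukemia 7 for Klrb1c (9.07, next 5.98), leukemia 5 for Gzma (7.11, next 5.33) and leukemia 3 for Prf1 (8.14, next 7.21). Klrk1, Gzma, Gzmb and Eomes were each above background in 1 Pax5+/- leukemia only, so that sample was set against values at background. Ncr1, Klrd1, Nkg7 and Klra8 had no such sample among the leukemias. The WT groups of 3 were too small to be checked.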

How the results depend on the processing

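No paired analysis was run, since sample numbers are used once each and do not show which samples, if any, belong together. A random block was also fitted, the first letter of the mouse number for samples whose source label names Pax5. All other samples formed 1 shared block, so mouse numbers played no part among them. Each count of called members was then as in the main model. Of the differences of single members under the alternatives, 1250 kept their side of the threshold, 20 gained a call, 0 lost one and 0 turned with a call. Among uncalled differences 93 did turn direction, 10 of them without WT leukemia 15, 6 without WT preleukemic sample 20 and 77 in other settings. With array weights the WT stage differences of Klrb1c, Ncr1, Klrk1, Gzma, Nkg7 and Eomes turned positive, from 0.16 (Eomes) to 0.53 (Klrk1). Without sample 20 the WT stage difference was 0.02 for Klrb1c and 0.19 for Klrk1. Shares of all genes called, given above, were taken for the main model and for the WT stages without sample 15 or sample 20. They were also taken for the fits with only the Pax5+/- or only the preleukemic groups. Other counts below have no such share and are descriptions. Between Pax5+/- stages 1 member was called, and 3 with only those groups in the fit (Ncr1 and Gzma lower). It was 4 without WT leukemia 15 and WT preleukemic sample 20, a choice made after seeing the data. Between WT stages the count was 1, with 0 at a filter on the 50th percentile, 2 with array weights, 4 without samples 15 and 20, and 1 to 6 when leaving out each sample in turn, with 6 without sample 15 and 2 without sample 20. Between the preleukemic groups it was 1, with 0 at the 50th percentile, 2 with only those groups and 2 without samples 15 and 20. At the 50th percentile Klra8 was not tested, which accounts for both counts of 0. The interaction had 0 members, 1 (Klra8) without samples 15 and 20, and 0 to 1 leaving out each sample, with 1 without sample 18 or sample 20. Between the leukemias 0 were called under each alternative. Leaving out Pax5+/- leukemias 2 and 7 together, chosen after seeing the data, left each count of called members as it was. Correlated pairs stayed at 0 in the Pax5+/- leukemias. In the Pax5+/- preleukemic samples they were 27, and 0 to 30 leaving out each sample. Genes at background have no depth to show a fall, and 3 mice per WT group limit what can be called.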
